A study of Mus musculus with 6 samples.

Results

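The proteasome and immunoproteasome genes were followed in macrophages grown from sorted bone marrow monocytes of C57BL/6 mice. They were taken by name, as every gene whose symbol starts with Psma, Psmb, Psmc, Psmd, Psme, Psmf or Psmg followed by a digit, which gave 50 of the 24411 genes in the files. Monocytes sorted as LFA1-hi Itgam-hi, or as LFA1-lo Itgam-lo, were the starting cells of the 2 groups, called LFA1-hi and LFA1-lo macrophages here. Both groups had the same culture of 7 days in RPMI with 10% FBS, P/S, glutamine and 20 ng/ml M-CSF, the growth factor that turns monocytes into macrophages, with fresh medium on day 4. LFA1 is an adhesion receptor of white blood cells and Itgam, or CD11b, a chain of another. The labels give neither the ages of the mice nor whether animals were pooled. No knockout or added agent is named, and rRNA-depleted bulk RNA was sequenced from 3 libraries a group.

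The proteasome is the barrel-shaped protease that cuts ubiquitin-tagged proteins into peptides. Its core particle is a stack of rings of alpha subunits (Psma genes) and beta subunits (Psmb genes), and its cap, built from ATPases (Psmc genes) and a lid and scaffold (Psmd genes), binds, unfolds and feeds in the substrate. Only the products of Psmb5, Psmb6 and Psmb7 among the constitutive beta subunits cut peptide bonds. In cells of the immune system, and in most cells under interferon, Psmb8 replaces Psmb5, Psmb9 replaces Psmb6 and Psmb10 replaces Psmb7 in newly built cores. That form, the immunoproteasome, changes which peptides are made for display on MHC class I, and the activator PA28, a ring of Psme1 and Psme2 products, is induced with it. Macrophages and dendritic cells are known to carry both core types.

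Psmc3ip met the naming rule but encodes no proteasome subunit. Its product, also called Hop2, acts in homologous recombination in meiosis. It was kept among the 50, and its values are given apart.

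The start regions of the genes at the catalytic positions are shown first, because the comparison turns on these pairs, together with that of Psme1. RefSeq windows on GRCm38.p6, from 250 bases before to 50 after a start site, were found for 42 of the 50 genes, with none for Psmb7. That site was not the outermost gene start in every case. The Psmb6 window lies further into the gene. Those of Psmd2 (from 20651402, gene start 20651122) and Psma3 (from 70974373, gene start 70969283) begin inside the gene. In the sequences, capitals mark matches to 4 short motifs searched on both strands. They were GAAA followed by NN and GAAA (N is any base), the core of the interferon-stimulated response element, TTCNNNGAA, the interferon-gamma activated site, TGACNNNGC, the antioxidant response element, and CCAAT, the letters bound by NF-Y. None of the 4 overlaps another in these windows.
Psmb5 (chr14:54617946-54618245, minus strand): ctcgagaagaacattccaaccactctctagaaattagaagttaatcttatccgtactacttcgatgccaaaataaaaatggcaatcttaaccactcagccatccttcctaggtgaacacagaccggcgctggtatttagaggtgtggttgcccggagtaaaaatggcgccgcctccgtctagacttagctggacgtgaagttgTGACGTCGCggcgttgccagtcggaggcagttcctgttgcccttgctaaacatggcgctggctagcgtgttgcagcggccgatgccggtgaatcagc
Psmb8 (chr17:34197945-34198244, plus strand): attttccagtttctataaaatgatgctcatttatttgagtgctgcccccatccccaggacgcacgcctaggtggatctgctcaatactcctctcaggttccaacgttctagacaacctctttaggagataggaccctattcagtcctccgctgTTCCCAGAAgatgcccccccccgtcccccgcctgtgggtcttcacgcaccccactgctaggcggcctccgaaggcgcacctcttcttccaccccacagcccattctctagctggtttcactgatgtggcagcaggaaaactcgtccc
Psmb6 (chr11:70525107-70525406, plus strand): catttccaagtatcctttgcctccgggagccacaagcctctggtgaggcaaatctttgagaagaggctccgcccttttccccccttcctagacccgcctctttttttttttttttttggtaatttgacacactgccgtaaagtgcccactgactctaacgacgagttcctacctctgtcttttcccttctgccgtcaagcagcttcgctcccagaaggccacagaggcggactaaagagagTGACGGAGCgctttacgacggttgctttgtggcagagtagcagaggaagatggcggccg
Psmb9 (chr17:34187281-34187580, minus strand): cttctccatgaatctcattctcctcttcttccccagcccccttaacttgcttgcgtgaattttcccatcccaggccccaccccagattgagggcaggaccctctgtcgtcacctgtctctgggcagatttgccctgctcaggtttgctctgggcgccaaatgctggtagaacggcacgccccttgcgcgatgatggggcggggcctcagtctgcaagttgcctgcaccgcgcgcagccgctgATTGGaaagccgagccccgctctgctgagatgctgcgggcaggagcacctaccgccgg
Psmb10 (chr8:105938343-105938642, minus strand): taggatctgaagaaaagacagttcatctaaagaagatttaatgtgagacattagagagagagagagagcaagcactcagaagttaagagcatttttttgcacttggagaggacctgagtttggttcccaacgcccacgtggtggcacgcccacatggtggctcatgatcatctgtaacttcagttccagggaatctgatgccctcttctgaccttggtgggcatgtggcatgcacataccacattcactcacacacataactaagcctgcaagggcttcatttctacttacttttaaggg
Psme1 (chr14:55578244-55578543, plus strand): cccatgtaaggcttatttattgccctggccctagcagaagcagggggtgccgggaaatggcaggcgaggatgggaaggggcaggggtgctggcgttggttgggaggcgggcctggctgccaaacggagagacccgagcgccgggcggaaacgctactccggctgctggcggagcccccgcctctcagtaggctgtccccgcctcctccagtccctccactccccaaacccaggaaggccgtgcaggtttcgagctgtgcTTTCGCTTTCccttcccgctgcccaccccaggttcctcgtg

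The capitals in the windows of Psmb5 and Psmb6, the constitutive members of their pairs, are each 1 antioxidant response element match. Those of Psmb8 are an interferon-gamma activated site match that begins 97 bases before the start, those of Psmb9 a CCAAT match, and those of Psme1 an interferon-stimulated response element match just after the start. The window of Psmb10 held none of the 4 motifs. Among the 42 genes the interferon-stimulated response element occurred in 5 (11.9%), against 3.44% of all 32851 mouse windows, and in 1 of the 5 inducible and PA28 genes. The interferon-gamma activated site occurred in 3 of the 42 (7.14%, against 8.3% of all windows), the antioxidant response element in 6 (14.3%, against 12.4%) and CCAAT in 15 (35.7%, against 37.4%). The shares among the 42 are per gene, with a match in any window of the gene counted. Those of all mouse windows are per window, so the percentages are not measured alike. A match describes letters in the window and shows no binding.

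The libraries held 15191262 to 17614509 expected counts in LFA1-hi and 16404922 to 17115544 in LFA1-lo, of which the 50 genes took 0.433% to 0.443% in LFA1-hi and 0.341% to 0.401% in LFA1-lo. Nothing in the labels ties a library to an animal or a culture of its own, so every p-value speaks of the spread among these samples, which could be technical. The defining genes of macrophages were abundant, with Csf1r at 667 ± 31.9 TPM in LFA1-hi and 1378 ± 200 TPM in LFA1-lo cultures (mean ± SD, n = 3 each, as throughout). TPM is the authors' length-corrected level, which has the same total in every library. Of 9 macrophage markers 1 rose and 5 fell in LFA1-hi, and they summed to 23720 to 27020 TPM in LFA1-hi and 27650 to 39420 TPM in LFA1-lo. The 7 granulocyte markers found in the files summed to 23.1 to 33.7 TPM in LFA1-hi and 53.6 to 180 TPM in LFA1-lo, and 3 of the 4 tested fell. Each of the lists for B, T, NK, dendritic, mast, erythroid and stromal cells summed to at most 5.38 TPM in an LFA1-hi and 6.86 TPM in an LFA1-lo library. The T cell genes Cd3d, Cd3e and Cd3g, the B cell gene Pax5 and the dendritic cell genes Flt3 and Ccr7 were at 0 in all libraries. Cd4, the tested gene of the T cell list, fell to 0.0833 ± 0.0551 TPM in LFA1-hi, against 2.49 ± 0.609 TPM in LFA1-lo (log2 fold change −4.80, edgeR adjusted p = 0.000229). Cd79b, that of the B cell list, was at 4.67 ± 0.686 TPM in LFA1-hi and 4.55 ± 2.50 TPM in LFA1-lo and did not pass. The part of these cell type markers in the results was not tested. In bulk RNA, fewer cells of a type and less RNA per cell cannot be told apart. LFA1-lo replicate 2 differed from the rest of its group, and for 32 of the 49 tested genes of the proteasome set it was the highest in LFA1-lo.

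In LFA1-hi macrophages 7 of 14 constitutive core genes and 7 of 17 cap genes rose and none fell, while the inducible catalytic gene Psmb10 fell. The test was edgeR's quasi-likelihood test over all genes, with Benjamini-Hochberg adjustment and a threshold of 0.05, and fold changes are LFA1-hi over LFA1-lo. Of the 49 genes tested, 16 were higher (32.7%), where 16.1% of all tested genes were, and 3 were lower (6.12%), where 15.6% of all were. Counted in either direction the share was 38.8%, against 31.7% of all tested genes. The median log2 fold change was 0.24 in the set and −0.01 over all 11692 tested genes, and 42 of the 49 were above 0. All differences but 2 were below 2-fold. Over the 5 genes Psmb8, Psmb9, Psmb10, Psme1 and Psme2, none rose, 1 fell and the median was −0.20, and of the other 44 tested genes 16 rose, 2 fell and the median was 0.26. The 50 genes summed to 6917 ± 86.4 TPM in LFA1-hi and 6042 ± 497 TPM in LFA1-lo, without overlap. Expression in CPM (counts scaled to a fixed library total) did not overlap between the groups for 26 of the 49 genes (53.1%, against 47.8% of all tested genes).

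**Figure D1:**
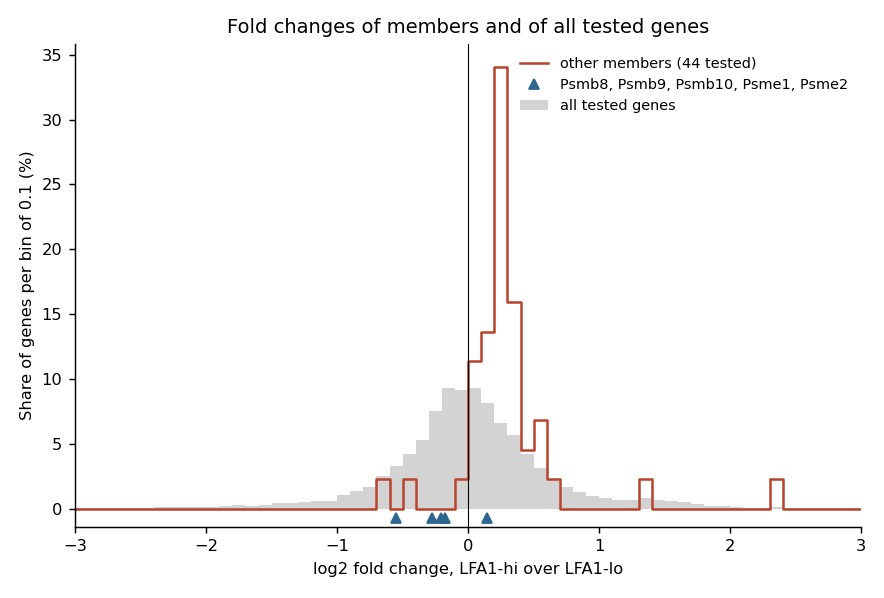
Share of genes in each bin of log2 fold change (LFA1-hi over LFA1-lo, bins of 0.1) for the 44 tested genes other than the inducible and PA28 genes (line) and for all 11692 tested genes (grey bars); triangles mark Psmb8, Psmb9, Psmb10, Psme1 and Psme2. The line peaks between 0.2 and 0.3 on the log2 scale, right of the centre of the grey bars, and 4 of the 5 triangles lie left of 0.

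Counts of called genes depended on single libraries. Without LFA1-lo replicate 2, 32 genes of the set were higher, where 21.8% of all tested genes were, and 3 were lower, where 20.5% were. Without LFA1-hi replicate 1, 2 or 3 the count of higher genes was 9 each time, where 9.81%, 9.97% and 10.4% of all tested genes were higher. Without LFA1-lo replicate 1 it was 8, where 11.5% of all were. The count of lower genes was 1, 2 and 1 without LFA1-hi replicate 1, 2 and 3, where 9.84%, 9.21% and 10.0% of all were lower, and 4 without LFA1-lo replicate 1, where 11.5% were. Without LFA1-lo replicate 3, 12 genes were higher and 2 lower, where 14.9% and 14.6% of all were. Psmb3, Psmb4, Psmb5, Psmb7, Psmc3, Psmd2 and Psmg2 were higher under all 16 alternatives tried, removals of a library included. Psmc3ip was higher under the 15 that tested it, and a filter at 10 CPM left it out.

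For the genes that did not pass, the fit set a limit to the size of a difference. Of the 30 genes, 26 had a 95% interval that lay within 1.5-fold in both directions. Psmb11, the beta subunit of the cortical thymic epithelium, had no read in any library, and a count of 3, taken as the detection limit, stood for 0.170 to 0.198 CPM. Psma8, the alpha subunit of spermatocytes, was at 1.42 ± 0.295 TPM in LFA1-hi and 1.34 ± 0.857 TPM in LFA1-lo macrophages, and its interval ran from −1.22 to 1.43 on the log2 scale.

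At the position of Psmb5, the chymotrypsin-like site that cuts after bulky hydrophobic residues, the constitutive gene was higher in LFA1-hi macrophages. Psmb5 (GRCm38 chromosome 14, 54614120 to 54617995) was at 316, 351 and 335 TPM in LFA1-hi replicates 1, 2 and 3 and at 230, 259 and 175 TPM in LFA1-lo replicates 1, 2 and 3. The groups did not overlap, and LFA1-lo replicate 3 was the lowest. The log2 fold change was 0.61 (SE 0.14, edgeR adjusted p = 0.0107), a 1.52-fold difference.

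Its inducible counterpart Psmb8, also called LMP7, did not pass the test. Psmb8 (chromosome 17, 34198195 to 34201454) was at 208, 189 and 179 TPM in LFA1-hi and at 144, 209 and 173 TPM in LFA1-lo libraries, so that LFA1-lo held both the lowest and the highest value. The log2 fold change was 0.15 (95% interval −0.19 to 0.48, edgeR adjusted p = 0.485). With LFA1-lo replicate 2 removed it rose by 0.32 (adjusted p = 0.0174), while its adjusted p reached 0.966 in other alternatives.

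At the position of Psmb6, the caspase-like site that cuts after acidic residues, neither gene passed. Psmb6 (chromosome 11, 70525324 to 70527858) was at 326, 308 and 304 TPM in LFA1-hi and 271, 343 and 274 TPM in LFA1-lo libraries, with LFA1-lo replicate 2 above all others. Its log2 fold change was 0.09 (SE 0.12, edgeR adjusted p = 0.583), or 0.24 without LFA1-lo replicate 2 (adjusted p = 0.0162), while its adjusted p reached 0.932 in other alternatives.

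Psmb9, also called LMP2, was the lowest of the 6 catalytic genes in both groups. It (chromosome 17, 34182030 to 34187330) was at 47.4, 39.2 and 40.3 TPM in LFA1-hi and 43.9, 53.8 and 50 TPM in LFA1-lo libraries. These ranges overlapped, and the log2 fold change was −0.20 (95% interval −0.55 to 0.15, edgeR adjusted p = 0.351). Psmb9 shares exon bases with Tap1 in GENCODE M21 on the opposite strand. In RefSeq, whose names the counted transcripts carry, the genes lie 225 bases apart. With the use of the read strand not given, how reads from the bases shared in GENCODE M21 were counted is not known. In all, 15 of the 50 genes share exon bases with another gene annotated in GENCODE M21. Among the 8 tested protein-coding partners none rose, and 2 fell, where 15.6% of all tested genes fell: Htr2b beside Psmd1 and 9930111J21Rik1 beside Psme2b.

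At the position of Psmb7, the trypsin-like site that cuts after basic residues, the genes of the pair moved in opposite directions. Psmb7 (chromosome 2, 38588046 to 38643952) was at 280, 269 and 261 TPM in LFA1-hi and 176, 220 and 183 TPM in LFA1-lo libraries, with no overlap. Its log2 fold change was 0.50 (SE 0.11, edgeR adjusted p = 0.00853).

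Psmb10, also called MECL-1, was the inducible catalytic gene that fell. It (chromosome 8, 105935728 to 105938392) was at 59.0, 72.7 and 63.0 TPM in LFA1-hi and 82.8, 106 and 99.5 TPM in LFA1-lo libraries. Each LFA1-hi value lay below each LFA1-lo value. The log2 fold change was −0.55 (SE 0.12, edgeR adjusted p = 0.00854), to 0.683 of the LFA1-lo level, and alternatives gave adjusted p-values of 0.000844 to 0.0511. The value of 0.0511, just past the threshold, came from removal of LFA1-hi replicate 1 (−0.50).

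**Figure D2:**
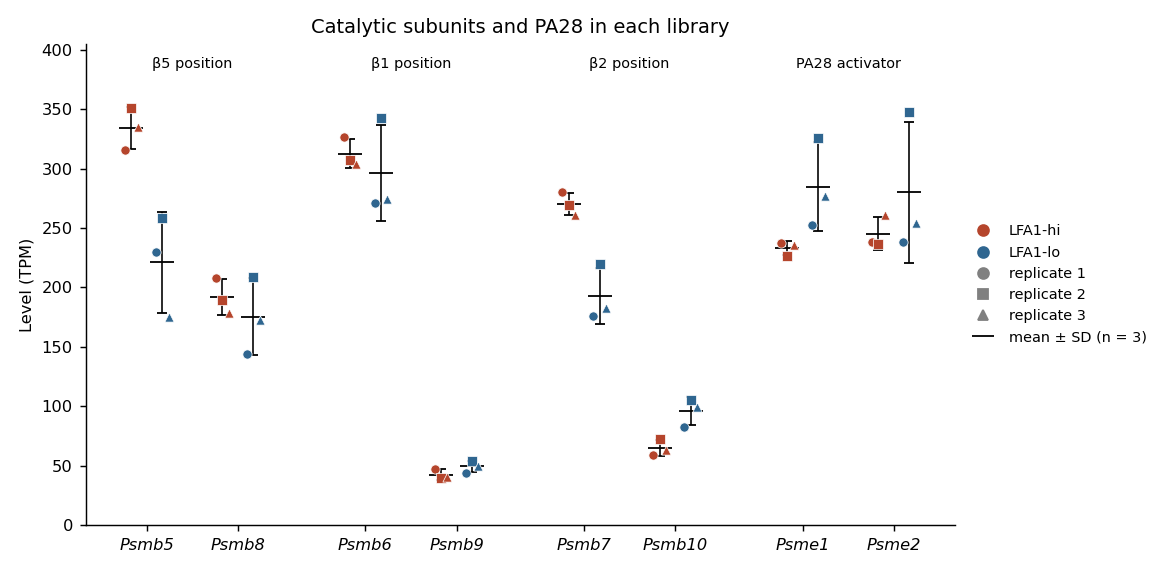
Level in TPM (y axis) of the 6 catalytic genes and of Psme1 and Psme2 in every library, LFA1-hi in red left of LFA1-lo in blue, with the mean and SD of 3 libraries. Psmb5 and Psmb7 are higher and Psmb10 is lower in LFA1-hi without overlap, while the Psmb6, Psmb8 and Psmb9 values of the groups overlap.

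The inducible share of catalytic mRNA was lower in the LFA1-hi libraries, a difference that was not tested. Psmb8, Psmb9 and Psmb10 made up 25.4%, 24.5% and 23.9% of the summed TPM of the 6 catalytic genes in LFA1-hi libraries, and 28.6%, 31.0% and 33.8% in LFA1-lo libraries. The groups did not overlap, with means of 24.6% ± 0.782 in LFA1-hi and 31.1% ± 2.62 in LFA1-lo, a difference of −6.51 percentage points. The summed inducible level was 299 ± 16.3 TPM in LFA1-hi and 320 ± 48.9 TPM in LFA1-lo, with overlap, and the summed constitutive level was 917 ± 15.1 TPM in LFA1-hi and 710 ± 99.3 TPM in LFA1-lo, without overlap.

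By position, the Psmb10 share of Psmb10 and Psmb7 together differed most, at 19.4% ± 1.93 in LFA1-hi and 33.2% ± 1.78 in LFA1-lo. The Psmb9 share was 11.9% ± 0.712 in LFA1-hi and 14.3% ± 0.988 in LFA1-lo, again without overlap. The Psmb8 share was 36.5% ± 2.76 in LFA1-hi and 44.3% ± 5.61 in LFA1-lo, where LFA1-hi replicate 1 lay above LFA1-lo replicate 1. As log2 ratios, the LFA1-hi minus LFA1-lo differences were −1.06 for Psmb10 over Psmb7, −0.31 for Psmb9 over Psmb6 and −0.47 for Psmb8 over Psmb5. In an exact two-sided permutation test over the 6 libraries these had p = 0.1, 0.1 and 0.2 (0.15, 0.15 and 0.2 adjusted over the 3 pairs). With 3 libraries against 3, no value can go below 0.1.

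**Figure D3:**
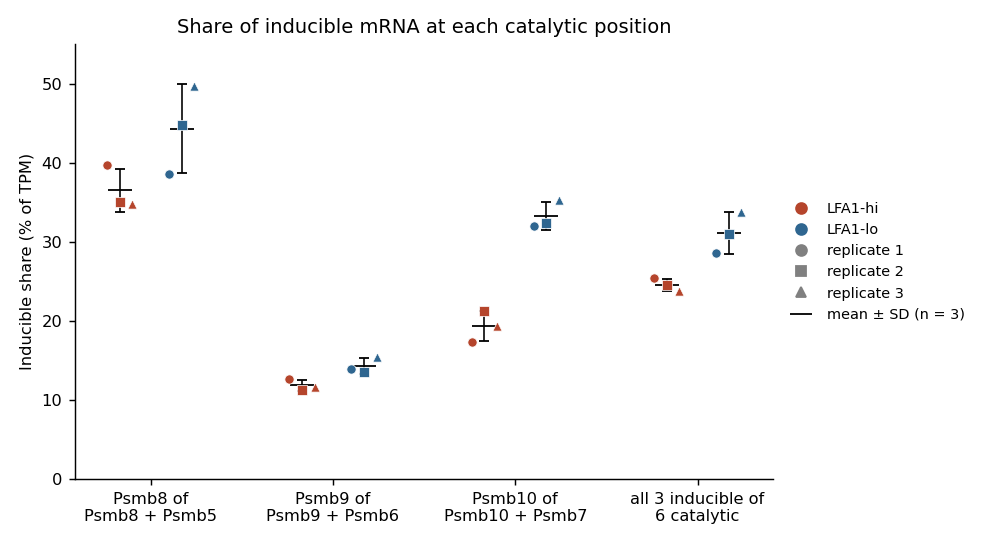
Percent of TPM held by the inducible gene at each catalytic position, and by all 3 inducible genes among the 6 catalytic genes, in every library, LFA1-hi in red left of LFA1-lo in blue, with the mean and SD of 3 libraries. The groups do not overlap for Psmb9, Psmb10 and the total (24.6% in LFA1-hi and 31.1% in LFA1-lo), and overlap for Psmb8.

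Constitutive and inducible genes of a position, summed, gave the mRNA level for that site. The sum of Psmb5 and Psmb8 was 526 ± 13.8 TPM in LFA1-hi and 396 ± 63.1 TPM in LFA1-lo, without overlap. Psmb6 and Psmb9 summed to 355 ± 16.5 TPM in LFA1-hi and 345 ± 44.7 TPM in LFA1-lo, and Psmb7 and Psmb10 to 335 ± 9.63 TPM in LFA1-hi and 289 ± 34.0 TPM in LFA1-lo, both with overlap. LFA1-lo replicate 2 held the highest LFA1-lo sum at each of the 3 positions.

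The beta ring subunits with no protease site, which hold the ring together, included Psmb3 and Psmb4, which rose. Psmb3 was at 277, 264 and 289 TPM in LFA1-hi and 192, 211 and 187 TPM in LFA1-lo libraries (log2 fold change 0.50, SE 0.10, edgeR adjusted p = 0.00415). Psmb4 was at 289, 289 and 275 TPM in LFA1-hi and 207, 208 and 200 TPM in LFA1-lo libraries (0.49, SE 0.08, adjusted p = 0.00155). In both genes the groups lay well apart. Psmb2 rose by 0.31 (adjusted p = 0.0334), which was lost without any 1 LFA1-hi library or LFA1-lo replicate 1 (adjusted p up to 0.136), and Psmb1 was at 211 ± 13.8 TPM in LFA1-hi and 199 ± 6.05 TPM in LFA1-lo and did not pass (0.10, adjusted p = 0.376). In all, 5 of the 7 constitutive beta genes rose, with a median of 0.49, where 16.1% of all tested genes rose. The summed level of the 7 was 1934 ± 33.9 TPM in LFA1-hi and 1511 ± 115 TPM in LFA1-lo.

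The alpha subunits form the outer rings and the gate of the core. Of 8 tested, 2 rose and none fell (median 0.18), where 16.1% of all tested genes rose and 15.6% fell. Psma2 rose by 0.32 on the log2 scale (297 ± 23.8 TPM in LFA1-hi and 240 ± 4.43 TPM in LFA1-lo, edgeR adjusted p = 0.0156) and Psma1 by 0.26 (adjusted p = 0.0411). The Psma2 call was lost without LFA1-hi replicate 2 or 3 or LFA1-lo replicate 1 (adjusted p up to 0.0755), and that of Psma1 without any library but LFA1-lo replicate 2 (up to 0.153). Psma6 narrowly missed the threshold (0.26, adjusted p = 0.0532), and passed with scaling by library totals (0.019), no filter (0.0486), a 10 CPM filter (0.047) or DESeq2 (0.0481). Values for Psma3, Psma4, Psma5 and Psma7 were between 0.04 and 0.21, without passing, and Psma7 stood at 230 ± 5.53 TPM in LFA1-hi and 227 ± 12.3 TPM in LFA1-lo. Psma3, Psma4 and Psma6 passed without LFA1-lo replicate 2 (adjusted p = 0.00427, 0.00435 and 0.00366).

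Subunits of the core are built in at equal number, and their mRNA levels lay within a small range. Among the 14 constitutive core genes, Psma8 left out, the highest over the lowest TPM was 2.57 to 3.08 in LFA1-hi and 2.74 to 2.94 in LFA1-lo libraries. Psma3 was the lowest in all 6 libraries. The median was 255 ± 9.56 TPM in LFA1-hi and 199 ± 9.19 TPM in LFA1-lo, with no overlap. Among the 17 cap genes the median was 116 ± 3.46 TPM in LFA1-hi and 98.5 ± 10.6 TPM in LFA1-lo. The core median was thus 2.19 ± 0.112 times the cap median in LFA1-hi and 2.03 ± 0.124 times in LFA1-lo, with overlap between the groups.

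The 6 ATPases of the cap, which unfold the substrate, were all above 0. Of these, 4 rose (median 0.34), where 16.1% of all tested genes rose. Psmc3 was at 190, 197 and 178 TPM in LFA1-hi and 148, 147 and 141 TPM in LFA1-lo libraries (log2 fold change 0.39, SE 0.08, edgeR adjusted p = 0.00447). Psmc5 was at 138, 146 and 124 TPM in LFA1-hi and 97.3, 121 and 90.3 TPM in LFA1-lo libraries (0.42, SE 0.13, adjusted p = 0.0354), with the groups close to each other. Psmc4 was at 121, 129 and 127 TPM in LFA1-hi and 94.9, 110 and 89.9 TPM in LFA1-lo libraries (0.37, SE 0.10, adjusted p = 0.021). Psmc6 rose by 0.31, and Psmc1 and Psmc2 were at 0.29 and 0.28 without passing, except without LFA1-lo replicate 2 (adjusted p = 0.000546 and 0.000509) and with scaling by library totals. The calls of Psmc4, Psmc5 and Psmc6 were lost when any of the LFA1-hi libraries or LFA1-lo replicate 1 was left out, and those of Psmc5 and Psmc6 also without LFA1-lo replicate 3 (adjusted p up to 0.0816, 0.12 and 0.132).

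The large scaffold subunit Psmd2, which docks substrates, was at 220, 212 and 211 TPM in LFA1-hi and 170, 173 and 174 TPM in LFA1-lo libraries (0.34, SE 0.07, edgeR adjusted p = 0.00644). Its spread was small in both groups. Psmd4, a receptor for ubiquitin chains, rose by 0.30 (adjusted p = 0.0211), while the other scaffold, Psmd1, was at 117 ± 6.71 TPM in LFA1-hi and 116 ± 21.7 TPM in LFA1-lo (0.02, adjusted p = 0.912). Of the 8 lid genes 1 rose, Psmd13 (0.30, adjusted p = 0.026), where 16.1% of all tested genes rose. The other lid genes had log2 fold changes of 0.09 to 0.29, among them Psmd14, the enzyme that removes ubiquitin from the substrate (0.24, adjusted p = 0.143). The call of Psmd4 was lost without LFA1-hi replicate 1 or 2 or LFA1-lo replicate 1 (adjusted p up to 0.0875), and that of Psmd13 without LFA1-hi replicate 1 or 3 or LFA1-lo replicate 1 or 3 (up to 0.111). Psmd1, Psmd3, Psmd6, Psmd7, Psmd11, Psmd12 and Psmd14 passed as higher without LFA1-lo replicate 2 (adjusted p up to 0.0381), and Psmd11 and Psmd12 also with scaling by library totals (0.0211 and 0.0431) and Psmd11 with no filter (0.0494). Psmd8 was the most abundant cap gene, at 334 ± 12.6 TPM in LFA1-hi and 317 ± 16.3 TPM in LFA1-lo.

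**Figure D4:**
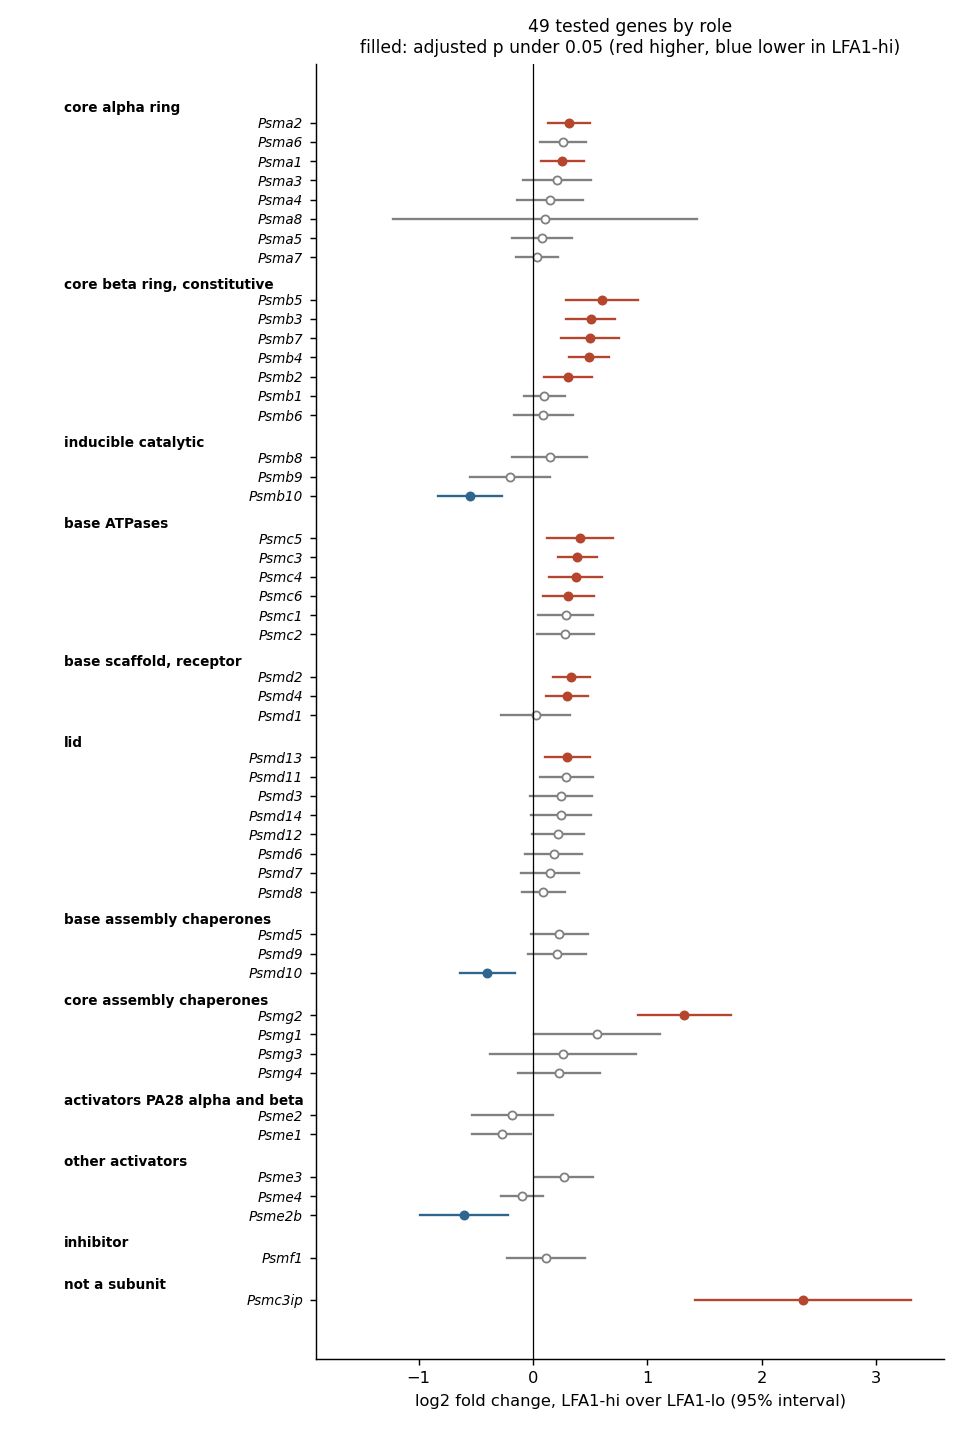
Log2 fold change (LFA1-hi over LFA1-lo, x axis) with 95% interval for the 49 tested genes, grouped by role in the proteasome; filled points passed the adjusted p threshold of 0.05, red for higher and blue for lower in LFA1-hi. Constitutive core and cap genes lie to the right of 0, and Psmb10, Psmd10 and Psme2b lie to the left as filled points. Psme1, an open point, also lies to the left with an interval that does not reach 0 (−0.532 to −0.018).

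The assembly factor Psmg2 had the largest fold change of any proteasome gene in the set. Its product pairs with that of Psmg1 to set up the alpha ring. Psmg2 was at 29.7, 25.6 and 25.2 TPM in LFA1-hi and 10.2, 9.93 and 12.4 TPM in LFA1-lo libraries. The groups lay far apart, and the log2 fold change was 1.33 (SE 0.18, edgeR adjusted p = 0.000702), a 2.51-fold difference. Its partner Psmg1 was at 26.4 ± 2.05 TPM in LFA1-hi and 18.1 ± 5.81 TPM in LFA1-lo (0.56, adjusted p = 0.113), and passed without LFA1-lo replicate 2 (0.74, adjusted p = 0.0205, alternatives up to 0.256). Psmg3 and Psmg4, a second chaperone pair, were at 0.26 and 0.23 without passing.

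Among the chaperones that build the base of the cap, Psmd10 (gankyrin) went the other way. It was at 31.9, 32.2 and 28.4 TPM in LFA1-hi and 41.6, 40.6 and 41.4 TPM in LFA1-lo libraries, with no overlap (log2 fold change −0.40, SE 0.11, edgeR adjusted p = 0.0187). The call was lost without LFA1-hi replicate 2 or 3 (adjusted p = 0.0657 and 0.0903, over alternatives from 0.00694). Psmd5 (0.23) and Psmd9 (0.21), which act with it, did not pass.

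The genes of PA28, which opens the core gate without ATP, lay in the range of the core subunits. Psme1 (chromosome 14, 55578494 to 55581527) was at 238, 227 and 236 TPM in LFA1-hi and 252, 325 and 277 TPM in LFA1-lo libraries. All LFA1-hi values lay below all LFA1-lo values, but the gene did not pass (log2 fold change −0.28, SE 0.11, edgeR adjusted p = 0.096), except without LFA1-lo replicate 1 (−0.37, adjusted p = 0.0477, alternatives up to 0.281).

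Psme2 (chromosome 14, 55587440 to 55591101) was at 238, 236 and 261 TPM in LFA1-hi and 238, 348 and 254 TPM in LFA1-lo libraries, with overlap. Its log2 fold change was −0.18 (95% interval −0.53 to 0.17, edgeR adjusted p = 0.416), and it was 0.04 without LFA1-lo replicate 2, the library with the highest value. Psme2b, a near-identical copy of Psme2 on chromosome 11, was listed at 33.3, 39.2 and 25.9 TPM in LFA1-hi and 43.4, 50.04 and 57.4 TPM in LFA1-lo libraries (−0.61, SE 0.17, adjusted p = 0.0239). Its value is uncertain, because its reads can be split with Psme2 and because it lies over exons of 9930111J21Rik1 on the same strand, which itself fell (−0.47, adjusted p = 0.00937). The call was lost without LFA1-hi replicate 1 or 3 or LFA1-lo replicate 3 (adjusted p = 0.0757, 0.0952 and 0.066, over alternatives from 0.00735). Summed as 1 gene, an alternative chosen after seeing the data, Psme2 and Psme2b gave −0.25 (adjusted p = 0.193).

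In the fit with TMM on all libraries, other regulators of the core did not pass. Psme3, the nuclear activator PA28 gamma, was at 78.5 ± 3.98 TPM in LFA1-hi and 65.9 ± 9.20 TPM in LFA1-lo (0.27, edgeR adjusted p = 0.0998), but passed without LFA1-lo replicate 2 and with scaling by library totals (adjusted p = 0.000637 and 0.0372). Psme4, the activator PA200, was at 37.1 ± 3.25 TPM in LFA1-hi and 40.2 ± 0.756 TPM in LFA1-lo (−0.09, adjusted p = 0.418), and Psmf1, an inhibitor of the core also called PI31, at 14.7 ± 2.36 TPM in LFA1-hi and 13.7 ± 2.19 TPM in LFA1-lo (0.11, adjusted p = 0.613).

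Psmc3ip, the gene with no part in the proteasome, had the largest fold change of the 50. It was at 11.5, 16.4 and 12.3 TPM in LFA1-hi and 1.02, 3.10 and 3.68 TPM in LFA1-lo libraries, without overlap (log2 fold change 2.36, SE 0.42, edgeR adjusted p = 0.00276). Its exons share bases with those of Mlx on the opposite strand, which was at 36.1 ± 0.305 TPM in LFA1-hi and 37.1 ± 6.15 TPM in LFA1-lo and did not pass (−0.01, adjusted p = 0.959). Genes of the dividing cell were also higher in LFA1-hi. Of 15 proliferation genes 14 rose, where 16.1% of all tested genes did. They summed to 2323 to 2583 TPM in LFA1-hi and 1188 to 1488 TPM in LFA1-lo. Pcna, which did not pass, held 649, 993 and 573 TPM in LFA1-lo replicates 1, 2 and 3. Within LFA1-lo, replicate 2 was the highest for Pcna, Mcm2, Mcm4 and Mcm5. It was the lowest for Mki67, Top2a, Mcm7, Rrm1, Rrm2, Ccnb1, Cdk1, Birc5 and Bub1. The part of the proliferation genes in the values of the proteasome genes was not tested.

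Genes that work beside the proteasome were taken from lists drawn up from textbook knowledge. Of 14 partners and assembly factors, 2 rose and 1 fell (median 0.04), where 16.1% of all tested genes rose and 15.6% fell. Uchl5, a deubiquitinase of the cap, was at 39.8 ± 3.76 TPM in LFA1-hi and 22.1 ± 2.91 TPM in LFA1-lo (0.86, edgeR adjusted p = 0.00136), and Ipo9, an importin that carries proteasomes into the nucleus, at 34.9 ± 0.160 TPM in LFA1-hi and 22.1 ± 1.14 TPM in LFA1-lo (0.68, adjusted p = 0.000254). Zfand5, a ubiquitin-binding activator of the proteasome, fell to 19.4 ± 1.01 TPM in LFA1-hi, against 30.2 ± 5.56 TPM in LFA1-lo (−0.62, adjusted p = 0.00788). Adrm1, a ubiquitin receptor of the cap (0.18, adjusted p = 0.332), and Pomp, the chaperone that matures the core (460 ± 38.3 TPM in LFA1-hi and 449 ± 68.8 TPM in LFA1-lo, adjusted p = 0.825), did not pass, although both did without LFA1-lo replicate 2 (adjusted p = 0.014 and 0.0476, over alternatives up to 0.737 and 0.981). Without that library 5 of the 14 rose, where 21.8% of all tested genes did.

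Among 15 shuttle factors and regulators of proteasome gene expression, 1 rose and 1 fell (median 0.12). Of all tested genes, 16.1% rose and 15.6% fell. Nfe2l1, the transcription factor that raises proteasome genes when proteasomes are inhibited, was at 101 ± 3.17 TPM in LFA1-hi and 109 ± 3.87 TPM in LFA1-lo (−0.09, edgeR adjusted p = 0.39). Nfe2l2, or Nrf2, which drives antioxidant genes, fell to 177 ± 3.599 TPM in LFA1-hi, against 246 ± 10.3 TPM in LFA1-lo (−0.45, adjusted p = 0.00123). Ufd1l, a cofactor of the segregase Vcp, rose by 0.39 (adjusted p = 0.0219), a call lost without any 1 of the LFA1-hi libraries (adjusted p up to 0.08). Without LFA1-lo replicate 2, 5 rose and 3 fell, where 21.8% and 20.5% of all tested genes did. Without LFA1-lo replicate 1, 2 rose and 2 fell, where 11.5% of all rose and 11.5% fell.

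Of 8 genes for ubiquitin and its activating enzymes, 3 fell and none rose, where 15.6% of all tested genes fell and 16.1% rose. Uba7, the enzyme that activates the ubiquitin-like protein ISG15 and is itself induced by interferon, was at 9.97 ± 1.05 TPM in LFA1-hi and 28.2 ± 4.43 TPM in LFA1-lo (−1.48, edgeR adjusted p = 0.000141). Uba6 fell by 0.42 on the log2 scale (edgeR adjusted p = 0.0202), a call lost without LFA1-hi replicate 1, 2 or 3 (adjusted p up to 0.0914). Of the 8 genes, 1 fell without any 1 of the LFA1-hi libraries, where 9.21% to 10.0% of all tested genes fell. Without LFA1-lo replicate 1 or 3, 2 fell, where 11.5% and 14.6% of all did. Uba1, the main enzyme for ubiquitin itself, was at 173 ± 5.56 TPM in LFA1-hi and 173 ± 10.4 TPM in LFA1-lo.

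Receptors, kinases and transcription factors known to act on the inducible genes were lower in LFA1-hi macrophages. Of 15 listed, 13 fell and none rose (median −0.43), where 15.6% of all tested genes fell and 16.1% rose. Irf1, a factor that binds the Psmb9 and Tap1 start region, was at 28.7 ± 1.75 TPM in LFA1-hi and 67.9 ± 8.57 TPM in LFA1-lo (−1.23, edgeR adjusted p = 0.000116). Ifngr1, a chain of the interferon-gamma receptor, was at 103 ± 5.03 TPM in LFA1-hi and 224 ± 43.6 TPM in LFA1-lo (−1.10, adjusted p = 0.000242), and Ifnar1, of the type I receptor, at 49.3 ± 1.56 TPM in LFA1-hi and 80.9 ± 5.03 TPM in LFA1-lo (−0.69, adjusted p = 0.000154). Stat2 fell by 0.62 (adjusted p = 0.0116) and Nlrc5, the activator of class I genes, by 0.38 (adjusted p = 0.0245). Without LFA1-hi replicate 1, 2 or 3, 7, 7 and 6 of the 15 fell, where 9.84%, 9.21% and 10.0% of all tested genes did. Nlrc5 was not among those that fell in these fits (adjusted p up to 0.0897). Stat2 missed the threshold without LFA1-hi replicate 3 (adjusted p = 0.056).

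Psmb8 and Psmb9 lie in the MHC on chromosome 17 in alternation with Tap1 and Tap2, the chains of the transporter that carries proteasome peptides into the endoplasmic reticulum. In RefSeq the starts of Psmb9 and Tap1 face each other across 225 bases, and Tap1 and Psmb8 are 969 bases apart. None of the 4 neighbours passed. Tap1 was at 33.4 ± 4.11 TPM in LFA1-hi and 37.5 ± 8.29 TPM in LFA1-lo (−0.15, edgeR adjusted p = 0.552) and Tap2 at 36.4 ± 1.04 TPM in LFA1-hi and 36.4 ± 1.29 TPM in LFA1-lo (0.02, adjusted p = 0.852). In contrast, where 15.6% of all tested genes fell and 16.1% rose, 5 of the 11 genes of class I peptide loading fell and none rose. They included Tapbp, or tapasin, which holds class I to the transporter (147 ± 7.89 TPM in LFA1-hi and 297 ± 35.6 TPM in LFA1-lo, −0.998, adjusted p = 0.000242), B2m (−0.87) and the heavy chains H2-D1 (−0.89) and H2-K1 (−0.83), whose reads can be shared with near-identical copies. These 5 fell in every fit, and 3 of the list rose without LFA1-lo replicate 2, where 21.8% of all tested genes did.

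**Figure D5:**
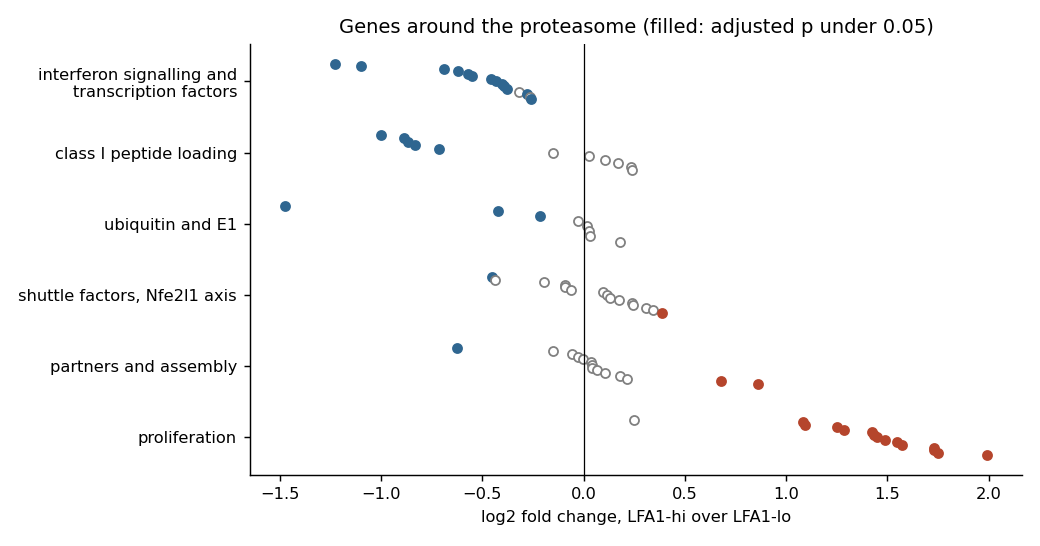
Log2 fold change (LFA1-hi over LFA1-lo, x axis) of each tested gene in 6 lists around the proteasome (rows); filled points passed the adjusted p threshold of 0.05, red for higher and blue for lower in LFA1-hi. Of the interferon signalling and transcription factor genes 13 of 15 fell, of class I peptide loading 5 of 11 fell, and of the proliferation genes 14 of 15 rose. Of all tested genes 16.1% rose and 15.6% fell.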

How the data were processed

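Per the submitters' processing notes, reads were handled with bcl2fastq, Trim Galore and RSEM on GRCm38. Which versions, aligner and strand setting were used is not given in the sources used here. Per the file headers, the deposited values are expected counts (RSEM estimates, not normalized), TPM and FPKM, both scaled by the authors for effective length and library size, with transcript lengths.

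Expected counts were rounded, filtered with filterByExpr (11692 genes kept), scaled by TMM and compared with edgeR 4.0.16 (robust quasi-likelihood, R 4.3.3), LFA1-hi minus LFA1-lo, no block, p-values adjusted by Benjamini-Hochberg across the genes kept. The procedure was tested on simulated data, where it recovered 30 of 100 planted 1.5-fold changes and 89 of 100 planted 2-fold changes. It also called 7 genes with no planted change. Every simulated gene had the same spread, and changes were planted in genes down to low counts. These rates therefore need not hold for the genes of the set. Standard errors and 95% intervals come from this fit, and levels are TPM. Alternatives used limma 3.58.1 and DESeq2 1.42.0. Coordinates and windows are RefSeq on GRCm38.p6, where all 50 genes matched, and exon overlaps are from GENCODE M21.

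Exact permutation tests over the 6 libraries were used for the 3 log2 ratios. Leaving out each library, other scalings and filters were the alternatives. The genes, lists and tests were chosen with earlier results of these data known. All 50 genes are accounted for. Every library is given for the 5 inducible and PA28 genes, their constitutive counterparts and the 10 other called genes with the largest changes. Of the other lists, up to 4 called genes with the largest changes and a few fixed by name are given. Some genes of the lists are counted but not reported here by name.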

Additional observations from a re-analysis of the deposited data

How the results depend on the processing

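The count of genes of the set higher in LFA1-hi (16, Psmc3ip among them) was 8 to 32 over the fits that left out a library. It was 16 to 22 over the other scalings, filters and tools, except the fit below. The count of lower genes (3) was 1 to 4 without a library, and the count over all genes (3705) was 2288 to 5032. The lowest counts of lower genes came without LFA1-hi replicate 1 or 3. With the replicate number as a block, 11 genes of the set were higher and 3 lower, and 3253 genes were called in all. Psma1, Psmb2, Psmc6, Psmd4 and Psmd13 lost their calls. Whether the numbers pair the libraries is not known. Deviations of same-numbered libraries correlated at 0.037, 0.018 and −0.072, and not every library correlated best with its own number. Deviations from a mean of 3 libraries offset each other, so these correlations cannot decide it. When libraries were scaled by totals alone, 22 were higher and 3 lower, the median over all genes moved to 0.06, and 2294 genes rose and 1471 fell, against 1883 and 1822 with TMM. The share of inducible catalytic subunits differed by −7.785 to −5.17 percentage points without a library, by −6.80 on counts not divided by length, and by −6.51 on FPKM. No called gene of the set changed direction in any alternative. The detection limit of 3 counts covers counting error only. The cause of the shifts between libraries was not tested.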

Other observations

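RSEM reports a transcript length for each gene averaged over its isoforms by their abundance, so that a shift in this length marks a shift in the isoforms counted. Of the 7 genes of the set with several RefSeq transcripts, Psmg4, a chaperone of the alpha ring, varied most. Its length was 540, 542 and 532 bases in LFA1-hi and 522, 528 and 530 bases in LFA1-lo libraries, which did not overlap. These lengths rest on few reads, with 190, 148 and 201 counts in LFA1-hi and 147, 149 and 144 counts in LFA1-lo libraries. The difference was not tested. For Psma7, Psmd10, Psme2, Psmf1, Psmd4 and Psmd2 the whole range over the 6 libraries was 7.68, 8.14, 4.72, 6.5, 1.9 and 0.89 bases.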
